A study of Homo sapiens with 24 samples.

Results

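The 38 genes described here encode the enzymes, regulators and carriers of glycolysis and members of the cellular response to hypoxia. They were taken as a fixed list of gene symbols from the 61251 genes of the expression table, and all 38 matched a gene. The list held 17 glycolytic enzymes from the hexokinases to lactate dehydrogenase, 3 regulators of the pathway (PFKFB3, PFKFB4 and PDK1), 4 carriers of glucose and lactate, HIF1A with 2 of its prolyl hydroxylases, and 11 other hypoxia response genes. RNA sequencing had measured them in KYSE450, a cell line established from a human squamous carcinoma of the oesophagus, in 24 libraries that fell into 4 groups of 6. The groups were parental KYSE450 cells, the drug tolerant persister (DTP) cells of the parental line, which are cells that outlast exposure to a drug, the chemoresistant derivative titled KYSE450DDP, and the DTP cells of that derivative. Every group carried the genotype label WT, was listed as untreated and was kept in RPMI-1640 medium with fetal bovine serum at 10%. Neither the drug, its dose, nor whether the chemoresistant derivative is 1 clone is given in the labels. Nothing in them ties the 6 libraries of a group to separate cultures, so p-values reflect the spread between these samples alone, which may be technical.

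Glycolysis breaks glucose down to pyruvate in the cytosol, and lactate dehydrogenase turns pyruvate into lactate, which carriers of the monocarboxylate family move out of the cell. When oxygen is short, the transcription factor subunit HIF1A escapes the prolyl hydroxylases of the EGLN family that mark it for degradation, and it raises the transcription of glycolytic enzymes, glucose carriers, VEGFA, carbonic anhydrases and mitophagy receptors. HIF1A is set mainly at the level of its protein, which RNA sequencing does not measure, and many tumour lines express glycolytic enzymes at a high level with oxygen present.

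The HIF complex binds DNA at a short core, written ACGTG or GCGTG, so the promoters of members whose persister change went opposite ways in the 2 lines were searched for it. RefSeq's table of promoters (GRCh38.p14) held 33 of the 38 members, and SLC2A3, SLC16A1, VEGFA, NDRG1 and BNIP3L were not among them. The 9 members with opposite changes included NDRG1 and BNIP3L. The 250 bases before each RefSeq transcription start were searched on both strands. GENCODE release 29 places several starts elsewhere: the windows of ALDOC, ENO2 and PFKM lie inside the gene in that annotation, and those of BNIP3, CA9, LDHA and PFKL reach into its first bases. The stretch of the window outside all GENCODE exons is therefore shown, for the 3 genes in which it holds a match. These are BNIP3 (chr10:131982014-131982173, minus strand) and PFKL (chr21:44299803-44300050, plus strand), which rose in parental DTP cells and fell in chemoresistant DTP cells, and LDHA (chr11:18394313-18394387, plus strand). LDHA fell in parental DTP cells and rose in chemoresistant DTP cells, a rise that lost its call in 19 of 34 other settings. The rise of PFKL in parental DTP cells lost its call in 1 of 34, and its libraries overlapped there. Each sequence runs 5′ to 3′ along its gene, and capitals mark every ACGTG or GCGTG on either strand, CACGTG being counted on both strands.
BNIP3: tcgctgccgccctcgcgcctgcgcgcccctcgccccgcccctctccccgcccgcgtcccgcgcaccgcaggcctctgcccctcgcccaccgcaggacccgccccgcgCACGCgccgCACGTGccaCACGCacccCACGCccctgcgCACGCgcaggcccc
PFKL: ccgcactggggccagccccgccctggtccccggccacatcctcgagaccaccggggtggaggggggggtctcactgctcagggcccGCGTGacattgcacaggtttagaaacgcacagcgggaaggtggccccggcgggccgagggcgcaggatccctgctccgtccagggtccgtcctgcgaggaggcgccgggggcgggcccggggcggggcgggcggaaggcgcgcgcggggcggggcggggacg
LDHA: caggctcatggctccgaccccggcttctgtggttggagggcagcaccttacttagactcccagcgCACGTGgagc
The shown stretches of BNIP3, LDHA and PFKL hold 6, 2 and 1 matches. In the whole window BNIP3 had 6 matches, ALDOC and LDHA 5 each, CA9, ENO2 and PFKL 1 each, and PFKM 0. Either core was found in 22 of the 33 members' windows (66.7%), in 58.5% of the 9225 windows of tested genes and in 43.2% of all 35116 windows. ACGTG alone was found in 14 of the members' windows (42.4%), against 24.03% of those of tested genes and 18.5% of all. A match is a run of letters and not a measured binding site.

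Levels are given in FPKM, read counts scaled by gene length and library size, so they can be compared between genes. Recovered library totals ran from 14947375 to 37989447 reads. Of the 38 members, 36 had a group mean of 1 FPKM or more and entered the test, among 13729 genes in all, by limma on log2(FPKM + 1) with Benjamini-Hochberg adjustment within each comparison. Fold changes are on that log2 scale, with their standard error (SE), and a gene is said to have risen, fallen or differed when its adjusted p was under 0.05. SLC2A3 and ANKRD37 stayed under the filter. Parental DTP libraries 5 and 6 and chemoresistant DTP library 2 stood apart from the others of their groups: their counts differed from the nearest library of the group by a chi-square per gene of 25.8, 19.9 and 53.2, against at most 5.76 elsewhere. The line's squamous markers (KRT5, KRT14, KRT17, KRT6A, TP63, SOX2, CDH1 and EPCAM) were all present, at a summed 4419 to 4891 FPKM in parental, 2665 to 3238 in parental DTP, 4103 to 4836 in chemoresistant and 4735 to 5302 in chemoresistant DTP libraries. Sums over the 5 leukocyte, 4 endothelial and 4 erythroid markers stayed at or under 2.57 FPKM in each library, with CD3E at 0 in all 24, and those over 6 fibroblast markers ran from 1.42 to 19.2 FPKM. Nuclear-retained RNAs (MALAT1, NEAT1, KCNQ1OT1 and MEG3) were listed as a sign of RNA quality. Their sum ran from 24.97 to 41.7 FPKM in parental, 51.4 to 60.8 in parental DTP, 31.9 to 51.4 in chemoresistant and 41.3 to 58.1 in chemoresistant DTP libraries. The 2 of them that were tested rose in both persister comparisons. They went opposite ways in chemoresistant against parental cells (-0.52 and 1.68), so the sum is no plain measure of quality. The part of these differences in the results was not tested, and in bulk RNA fewer cells of a type and less RNA per cell cannot be told apart.

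In parental DTP cells the hypoxia response members mostly rose and the glycolytic enzymes mostly fell. In chemoresistant DTP cells both kinds fell more often than they rose in the main fit, for the enzymes not in every setting. Of the 36 tested members, 15 rose and 10 fell from parental to parental DTP cells, where 45.8% of all tested genes rose and 19.7% fell. From chemoresistant to chemoresistant DTP cells 5 members rose and 13 fell, against 20.5% and 27.4% of all genes. Chemoresistant cells had higher levels than parental cells for 17 members and lower for 7, where 48.2% and 29.4% of all genes were higher and lower. Between the 2 DTP groups 13 members were higher and 11 lower in the chemoresistant line, against 29.5% and 32.3%. The members as a whole were thus called about as often as other genes. Falls in the persister comparisons (10 of 36 beside 19.7%, and 13 of 36 beside 27.4%) were somewhat more frequent than among all genes. That excess was not tested, and the members were chosen with earlier results of these data known. Their median log2 fold changes in these 4 comparisons were 0.13, -0.09, 0.13 and 0.06, and those of all genes 0.14, -0.02, 0.14 and -0.02.

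**Figure D1:**
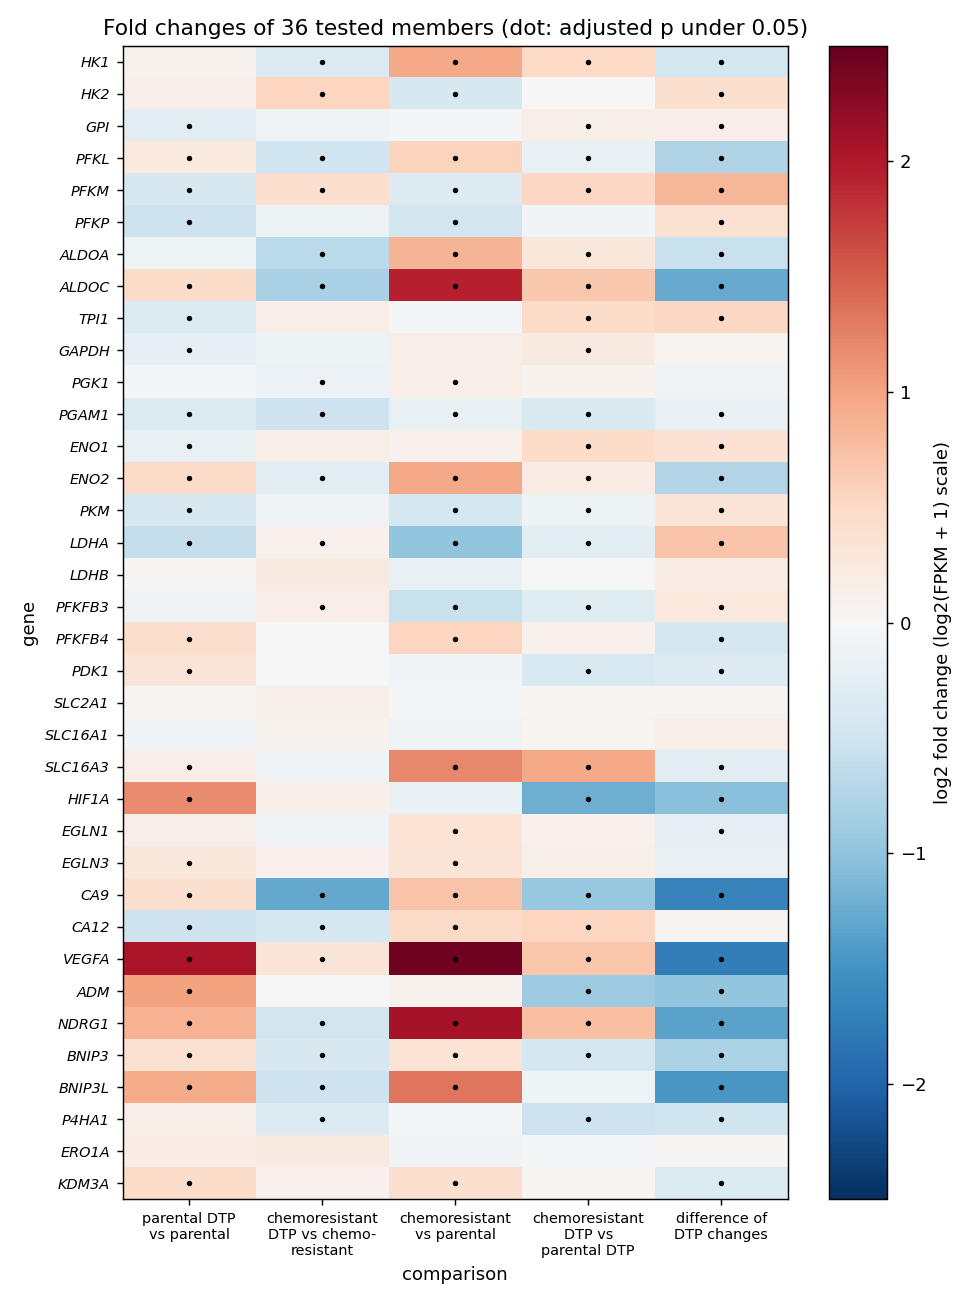
Log2 fold changes of the 36 tested members (rows, by role from hexokinases to hypoxia response genes) in the 4 comparisons and the difference of the persister change between the lines (columns), on the log2(FPKM + 1) scale. Red is higher, blue is lower, and a dot marks an adjusted p under 0.05; VEGFA has the deepest red of all, at 2.43 in chemoresistant against parental cells, and most hypoxia response rows are red in the first column and blue in the last.

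The direction of these counts moved with the scaling. Scaling by relative log expression factors, which sets the median change of all genes near 0, lowered the median of all genes from 0.14 to 0.00 in parental DTP against parental and in chemoresistant against parental cells. Under it 12 members rose and 14 fell from parental to parental DTP cells, beside 32.6% and 32.1% of all genes. In chemoresistant against parental cells 16 members were higher and 16 lower, beside 39.1% and 38.5%. Of all called genes the share that rose went from 69.9% to 50.4% in the first of these comparisons and from 62.1% to 50.4% in the other. In parental DTP cells 14 members rose and 11 fell without libraries 5 and 6, beside 5917 and 2682 of 13747 genes. In chemoresistant DTP cells 7 rose and 13 fell without library 2, beside 3390 and 3851 of 13754 genes.

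By roles, 7 of the 10 tested hypoxia response members other than HIF1A and its hydroxylases rose in parental DTP cells and 1 fell, with a median of 0.43. In chemoresistant DTP cells 1 rose and 6 fell (median -0.37). Of the 17 glycolytic enzymes, 3 rose and 9 fell in parental DTP cells (median -0.19), and 3 rose and 7 fell in chemoresistant DTP cells (median -0.13). All tested genes had 45.8% rises and 19.7% falls in parental DTP cells, and 20.5% and 27.4% in chemoresistant DTP cells. Under relative log expression scaling 6 of the same 10 hypoxia response members rose and 1 fell in parental DTP cells. In chemoresistant DTP cells 3 then rose and 6 fell. The enzymes then had 2 rises and 11 falls, and 4 and 6. Shares of all genes under it were 32.6% and 32.1% in parental DTP cells, and 23.66% and 25.45% in chemoresistant DTP cells. With GC correction TPI1 (0.27), ENO1 (0.23) and LDHB (0.24) were also called higher in chemoresistant DTP cells, and ENO2 was no longer called lower. The enzymes then no longer fell more often than they rose there, while 3547 of 13729 genes rose and 3709 fell. The 2 persister comparisons share no library. Both called 1 member higher, VEGFA, 2.78% of the tested members against 6.67% of all tested genes. Both called 2 lower, CA12 and PGAM1, 5.56% against 3.85%. LDHA and PFKM fell in the parental line and rose in the chemoresistant line, 5.56% against 7.01%. ALDOC, BNIP3, BNIP3L, CA9, ENO2, NDRG1 and PFKL rose in the parental line and fell in the chemoresistant line, 19.4% of the tested members, where 16.7% of all tested genes did so. ENO1, GAPDH, GPI, PFKP, PKM and TPI1, all glycolytic enzymes, fell in the parental line and were not called in the chemoresistant line, 16.7% of the members against 8.88% of all genes. Under relative log expression scaling this pattern was found in 19.4% of the members and 15.2% of all genes, and the opposite changes of the pattern before it in 13.9% and 12.3%. The falls of GAPDH and ENO1 lost their calls in 6 and 7 of 34 other settings, and that of ENO2 in chemoresistant DTP cells under GC correction.

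**Figure D2:**
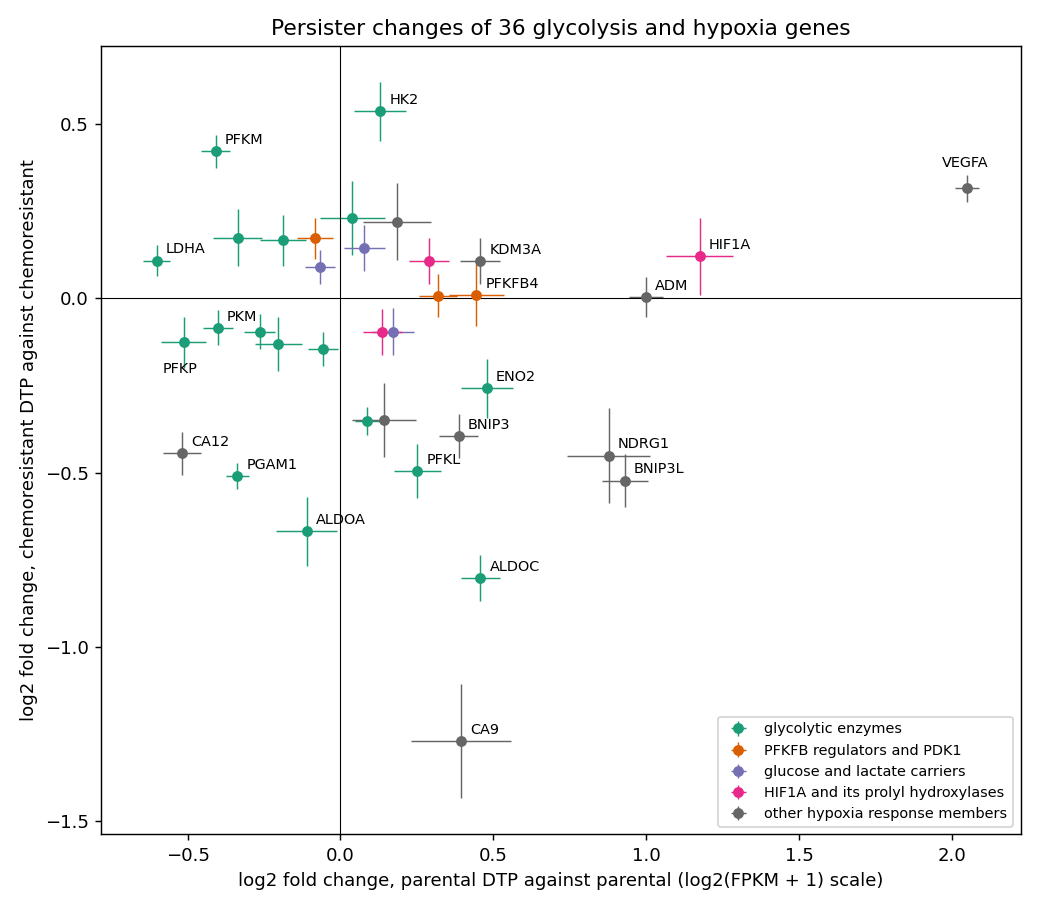
Log2 fold change of each tested member from parental to parental DTP cells (horizontal) and from chemoresistant to chemoresistant DTP cells (vertical), on the log2(FPKM + 1) scale, with bars of 1 SE and colours by role. VEGFA stands far right at 2.05 and 0.32, HIF1A and ADM lie right on the zero line, BNIP3L, NDRG1, ALDOC and CA9 lie lower right, and LDHA, PFKP and PKM lie left near the zero line.

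The difference between the lines was itself tested as the change in chemoresistant DTP cells minus that in parental DTP cells. It was above 0 for 9 members and below 0 for 19, where 20.5% and 43.4% of all tested genes were. Of the hypoxia response members other than HIF1A and its hydroxylases, 8 of 10 had a difference below 0 and 0 above it, with a median of -0.89 beside -0.17 for all genes. Glycolytic enzymes were split, with 8 above and 6 below 0. Under relative log expression scaling the counts over all members were 13 and 15, beside 31.0% and 33.3% of all genes. Of the same 10 hypoxia response members 1 was then above and 8 below 0, with a median of -0.69 beside -0.01 for all genes. The enzymes then had 9 above and 5 below 0.

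HIF1A (ENSG00000100644, chromosome 14, 61695513 to 61748259 of GRCh38), the oxygen-regulated subunit of the HIF transcription factor, was higher in parental DTP cells than in the other 3 groups. Its level was 62.0 to 81.0 FPKM (median 67.9) in parental and 115 to 181 FPKM (median 173) in parental DTP libraries. Chemoresistant libraries had 52.7 to 68.9 FPKM (median 65.2), and chemoresistant DTP libraries 51.5 to 77.3 FPKM (median 69.9). All 6 parental DTP libraries lay above every library of the other groups, which overlapped each other, and within parental DTP cells the lowest values were those of libraries 5 and 6. HIF1A rose in parental DTP cells by 1.18 (SE 0.11, limma adjusted p = 1.86e-09), and by 1.33 without libraries 5 and 6. From chemoresistant to chemoresistant DTP cells its log2 fold change was 0.12 (limma adjusted p = 0.386). The difference between the 2 changes was -1.05 (SE 0.16, limma adjusted p = 2.58e-06). In chemoresistant against parental cells HIF1A stood at -0.16 and was not called. It was called lower there under relative log expression scaling (-0.35) and under GC correction (-0.23).

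Of the prolyl hydroxylases that mark HIF1A for degradation, the members EGLN1 and EGLN3 stayed low in every group. EGLN1 was at 2.44 ± 0.177, 2.79 ± 0.262, 3.35 ± 0.349 and 3.08 ± 0.402 FPKM in parental, parental DTP, chemoresistant and chemoresistant DTP cells (mean ± SD, n = 6 each, in this order wherever 4 means follow each other). It was higher in chemoresistant than in parental cells by 0.34 (SE 0.06), and its persister changes of 0.14 and -0.10 were not called. EGLN3, itself an HIF target, was at 1.37 ± 0.270, 1.89 ± 0.289, 1.96 ± 0.113 and 2.19 ± 0.119 FPKM. It rose in parental DTP cells by 0.29 and was higher by 0.33 in chemoresistant than in parental cells.

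VEGFA (ENSG00000112715, chromosome 6, 43770184 to 43786487), the growth factor of blood vessels and a textbook HIF target, had the largest log2(FPKM + 1) change of the members. As a ratio of means, 6.53 in chemoresistant against parental cells, it came after SLC16A3 (8.82). Parental libraries had 3.59 to 4.13 FPKM (median 3.84), and parental DTP libraries 17.8 to 20.02 FPKM (median 19.3). Levels were 24.4 to 25.9 FPKM (median 25.4) in chemoresistant and 29.6 to 34.7 FPKM (median 31.6) in chemoresistant DTP libraries. The 4 groups did not overlap and stood in the order given, from lowest to highest. Parental DTP cells were 2.05 (SE 0.04, limma adjusted p = 1.4e-22) above parental cells, or 1.89 under relative log expression scaling. Chemoresistant cells were 2.43 (SE 0.04, limma adjusted p = 1.96e-24) above parental cells. The persister rise of the chemoresistant line was smaller, 0.32 (SE 0.04, limma adjusted p = 3.3e-07), and the 2 rises differed by -1.73 (SE 0.05, limma adjusted p = 6.92e-18).

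ADM (ENSG00000148926, chromosome 11, 10304680 to 10307397), which encodes the vasodilator peptide adrenomedullin, was high in parental DTP cells alone among the 4 groups. It was at 24.7 to 26.8 FPKM (median 25.8) in parental and 47.9 to 58.3 FPKM (median 51.2) in parental DTP libraries. Chemoresistant libraries had 26.3 to 30.5 FPKM (median 26.8) and chemoresistant DTP libraries 25.5 to 32.8 FPKM (median 26.4). Every parental DTP library lay above all other libraries, and the other 3 groups overlapped. ADM rose in parental DTP cells by 1.00 (SE 0.06, limma adjusted p = 2.37e-13), while its change in the chemoresistant line was 0.00 (adjusted p = 0.961 by limma). Chemoresistant DTP cells were -0.91 (SE 0.06, limma adjusted p = 8.83e-13) relative to parental DTP cells. This was the pattern of HIF1A, whose 3 other groups overlapped as well.

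NDRG1, a stress-induced protein named after its regulation by N-myc and a marker of hypoxia, was lowest in parental and highest in chemoresistant cells. Levels were 4.59 to 11.7 FPKM (median 7.53) in parental and 12.9 to 18.4 FPKM (median 14.2) in parental DTP libraries, and 29.3 to 41.3 FPKM (median 35.6) in chemoresistant and 21.6 to 28.98 FPKM (median 25.4) in chemoresistant DTP libraries. No 2 of the 4 groups overlapped. NDRG1 rose by 0.88 (SE 0.14, limma adjusted p = 4.84e-06) in parental DTP cells and fell with a log2 fold change of -0.45 (SE 0.14, limma adjusted p = 0.00821) in chemoresistant DTP cells. In chemoresistant cells it was higher than in parental cells by 2.08 (SE 0.14, limma adjusted p = 8.22e-13).

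BNIP3L and BNIP3 encode related receptors of the outer mitochondrial membrane that direct mitochondria to autophagy. BNIP3L was at 4.69 to 6.93 FPKM (median 5.13) in parental and 9.97 to 13.3 FPKM (median 11.2) in parental DTP libraries, and at 13.5 to 16.7 FPKM (median 15.4) in chemoresistant and 9.39 to 11.1 FPKM (median 10.4) in chemoresistant DTP libraries. Both DTP groups lay between the parental and the chemoresistant groups and overlapped each other. It rose by 0.93 (SE 0.08, limma adjusted p = 1.51e-10) in parental DTP cells, fell with -0.52 (SE 0.08, limma adjusted p = 3.88e-06) in chemoresistant DTP cells and was higher in chemoresistant than in parental cells by 1.34 (SE 0.08, limma adjusted p = 4.92e-14). BNIP3 had a narrower range, with 8.16 to 10.7 FPKM (median 8.73) in parental, 10.8 to 13.3 FPKM (median 12.3) in parental DTP, 10.1 to 12.8 FPKM (median 11.9) in chemoresistant and 8.09 to 9.49 FPKM (median 8.60) in chemoresistant DTP libraries. Its levels separated each DTP group from its own line, with rises of 0.39 (SE 0.06) in the parental and a change of -0.40 (SE 0.06) in the chemoresistant line. The share of BNIP3L in the summed FPKM of the pair was 37.5 ± 1.26% in parental, 48.1 ± 2.04% in parental DTP, 56.4 ± 1.33% in chemoresistant and 54.2 ± 1.96% in chemoresistant DTP cells (mean ± SD, n = 6 each). Processed pseudogenes of BNIP3, 39 by name, summed to 7.68% to 18.4% of its own FPKM, and reads shared with them make its level uncertain.

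CA9, the carbonic anhydrase of the cell surface that serves as a histological marker of hypoxia, was lowest in chemoresistant DTP cells. It was at 1.98 to 5.91 FPKM (median 3.31) in parental, 3.62 to 5.45 FPKM (median 4.40) in parental DTP, 3.73 to 7.15 FPKM (median 6.44) in chemoresistant and 1.45 to 2.43 FPKM (median 1.78) in chemoresistant DTP libraries. Parental libraries spread widely and overlapped all other groups, while chemoresistant DTP libraries lay below all chemoresistant and all parental DTP libraries. CA9 fell in chemoresistant DTP cells with a log2 fold change of -1.27 (SE 0.16, limma adjusted p = 7.46e-07), and it was higher in chemoresistant than in parental cells by 0.71 (SE 0.16). Its rise in parental DTP cells (0.39, limma adjusted p = 0.0382) lost its call in 11 of 34 other settings, among them without parental library 1, 2 or 3 (0.29 to 0.37) and without parental DTP library 3, 4 or 6 (0.35 to 0.40). Exons of CA9 share 38.5% of their bases with ARHGEF39 on the opposite strand, which was at 4.14, 4.06, 3.83 and 3.04 FPKM in the 4 groups, and the strandedness of the libraries is not given in the sources used here.

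CA12, another cell surface carbonic anhydrase, fell in both DTP groups. Levels were 1.79 to 2.53 FPKM (median 2.08) in parental and 1.09 to 1.25 FPKM (median 1.16) in parental DTP libraries, and 2.88 to 3.78 FPKM (median 3.31) in chemoresistant and 1.61 to 2.42 FPKM (median 2.30) in chemoresistant DTP libraries. In both lines the DTP libraries lay below all libraries of their own line. Its log2 fold changes were -0.52 (SE 0.06, limma adjusted p = 1.2e-07) in the parental and -0.44 (SE 0.06, limma adjusted p = 2.66e-06) in the chemoresistant line, and they differed by 0.07 (limma adjusted p = 0.486). CA9 made up 59.7 ± 7.78% of the summed FPKM of the 2 anhydrases in parental cells and 79.4 ± 2.00% in parental DTP cells. In the chemoresistant line its share was 63.8 ± 5.39% and, in the DTP cells, 46.1 ± 6.08%. CA9 thus took a larger share of the pair in parental DTP cells than in their line, and a smaller one in chemoresistant DTP cells, in both lines without overlap of libraries.

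Of the other 4 hypoxia response members, KDM3A and P4HA1 were called in some comparisons, ERO1A in none, and ANKRD37 was not tested. KDM3A, a histone demethylase induced by HIF, rose from 4.19 ± 0.456 to 6.11 ± 0.425 FPKM in parental DTP cells (0.46, SE 0.07). It was at 5.83 ± 0.286 and 6.39 ± 0.767 FPKM in the chemoresistant groups, and higher in chemoresistant than in parental cells by 0.40. In chemoresistant DTP cells KDM3A was called higher under relative log expression scaling (0.13) and without library 2 (0.17), but not in the main fit. P4HA1, a collagen prolyl hydroxylase, fell from 19.5 ± 2.83 to 15.0 ± 1.11 FPKM in chemoresistant DTP cells (-0.35, SE 0.10), and was at 19.9 ± 3.62 and 22.0 ± 3.22 in the parental groups. ERO1A, an oxidase of protein folding, had means from 7.34 to 8.87 FPKM and was called in no comparison, though lower in chemoresistant than in parental cells (-0.23) and higher in chemoresistant DTP than in chemoresistant cells (0.24) under relative log expression scaling. ANKRD37, a small ankyrin repeat protein, was not tested, with 0.373 to 0.873 FPKM (median 0.523) in parental, 0.729 to 1.32 FPKM (median 0.809) in parental DTP, 0.775 to 1.07 FPKM (median 1.01) in chemoresistant and 0.788 to 1.28 FPKM (median 0.931) in chemoresistant DTP libraries. Its exons share 35.2% of their bases with UFSP2 on the opposite strand.

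**Figure D3:**
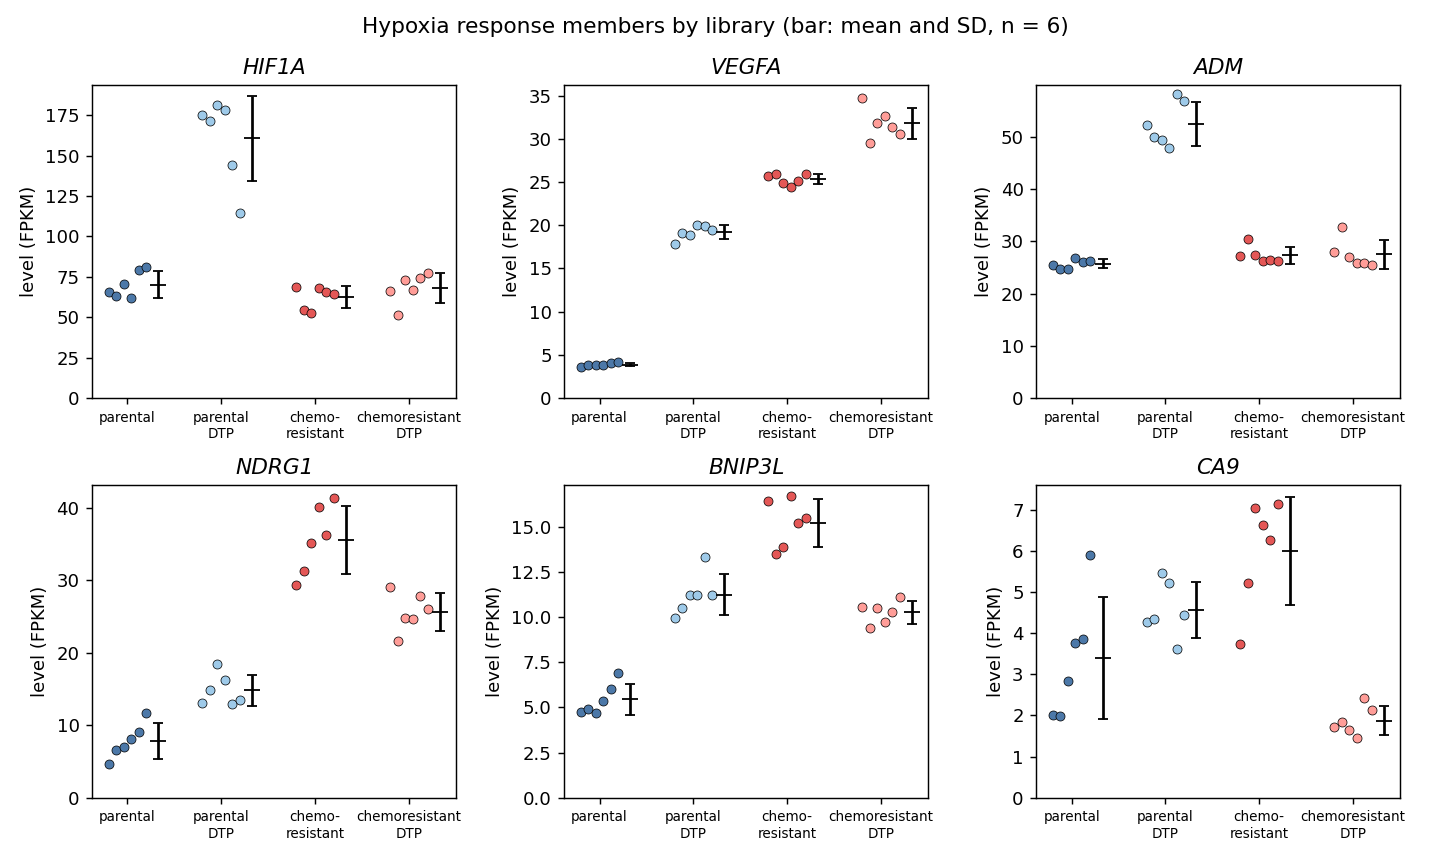
FPKM of 6 hypoxia response members in each of the 24 libraries (points, by group), with the mean and SD of each group of 6 (bars). HIF1A and ADM are high in parental DTP libraries alone, VEGFA and NDRG1 separate all 4 groups, BNIP3L falls from the chemoresistant to the chemoresistant DTP group, and CA9 is lowest in chemoresistant DTP libraries, at 1.45 to 2.43 FPKM.

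The glycolytic enzymes spanned a wide range of levels, from 3349.6 FPKM for GAPDH to 1.70 for ENO2 in parental cells. Summed over the 17 enzymes they reached 5719 ± 425 FPKM in parental cells, 4833 ± 353 FPKM in their DTP cells, and 5896 ± 492 and 5606 ± 346 in chemoresistant and chemoresistant DTP cells. Their share of all recovered reads was 2.11%, 1.75%, 2.04% and 1.97% on average. GAPDH alone made up most of each sum. ENO1, TPI1, PKM and LDHA followed it, and LDHB, ENO2 and ALDOA were the lowest in parental cells.

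At the entry of the pathway, hexokinases phosphorylate glucose, and the 2 lines differed in the proportions of HK1 and HK2. HK1, the constitutive hexokinase, was at 16.7 to 18.3 FPKM (median 17.7) in parental and 17.7 to 19.6 FPKM (median 18.8) in parental DTP libraries. In chemoresistant libraries it was at 31.6 to 38.2 FPKM (median 34.7), and in chemoresistant DTP libraries at 24.8 to 27.9 FPKM (median 27.4). The 2 parental groups overlapped, and both chemoresistant groups lay above them and apart from each other. HK1 was higher in chemoresistant than in parental cells by 0.94 (SE 0.04, limma adjusted p = 2.31e-16) and fell in chemoresistant DTP cells with -0.35 (SE 0.04, limma adjusted p = 1.48e-07). HK2, the hexokinase induced by hypoxia and growth signals, went the other way.
HK2 was at 37.7 to 41.8 FPKM (median 40.3) in parental and 38.3 to 50.6 FPKM (median 43.9) in parental DTP libraries, at 29.1 to 32.5 FPKM (median 29.4) in chemoresistant and at 30.5 to 49.2 FPKM (median 47.4) in chemoresistant DTP libraries. Chemoresistant libraries lay below all parental ones, and 5 of the 6 chemoresistant DTP libraries lay above every chemoresistant library. The exception was library 2, the one that stood apart. HK2 rose in chemoresistant DTP cells by 0.54 (SE 0.08, limma adjusted p = 1.31e-05), and by 0.64 without library 2. Its change in parental DTP cells was 0.13 (limma adjusted p = 0.182). HK1 made up 30.5 ± 0.614% and 29.9 ± 2.04% of the summed hexokinase FPKM in the parental groups, 53.5 ± 0.926% in chemoresistant cells and 37.97 ± 3.36% in chemoresistant DTP cells.

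Phosphofructokinase, the main regulated step of glycolysis, is a tetramer of liver (PFKL), muscle (PFKM) and platelet (PFKP) type subunits, and the 3 genes moved apart. PFKM (ENSG00000152556, chromosome 12, 48105139 to 48146404) was at 21.8 to 24.8 FPKM (median 23.9) in parental and 15.4 to 19.2 FPKM (median 17.5) in parental DTP libraries, and at 17.3 to 19.96 FPKM (median 18.8) in chemoresistant and 24.1 to 27.5 FPKM (median 25.5) in chemoresistant DTP libraries. Each DTP group was separate from its own line, lower in the parental and higher in the chemoresistant line. PFKM fell in parental DTP cells with -0.41 (SE 0.05, limma adjusted p = 7e-08) and rose in chemoresistant DTP cells by 0.42 (SE 0.05, limma adjusted p = 9.98e-08), a difference of 0.83 (SE 0.07, limma adjusted p = 1.62e-10). Exons of PFKM share 8.58% of their bases with SENP1, which was at 7.75, 7.54, 6.64 and 6.26 FPKM in the 4 groups.
PFKL went the opposite way, at 37.4 to 47.0 FPKM (median 43.6) in parental, 43.5 to 62.5 FPKM (median 49.7) in parental DTP, 56.0 to 75.4 FPKM (median 62.1) in chemoresistant and 42.1 to 47.3 FPKM (median 44.9) in chemoresistant DTP libraries. Chemoresistant libraries lay above all parental and all chemoresistant DTP libraries, and the parental groups overlapped. PFKL fell in chemoresistant DTP cells with -0.50 (SE 0.08, limma adjusted p = 1.04e-05). Its rise of 0.25 in parental DTP cells was no longer called under relative log expression scaling (0.07, limma adjusted p = 0.548). PFKP, the most abundant subunit in parental cells, fell in parental DTP cells from 62.7 ± 6.39 to 43.6 ± 3.76 FPKM (-0.51 (SE 0.07, limma adjusted p = 1.67e-06)) and was at 45.2 ± 3.51 and 41.4 ± 3.89 FPKM in the chemoresistant groups. The share of PFKL in the 3 subunits was 33.2 ± 0.683%, 45.5 ± 1.71%, 49.9 ± 1.21% and 40.2 ± 2.06% in the 4 groups, and that of PFKP 48.5 ± 1.04%, 38.8 ± 0.752%, 35.3 ± 0.449% and 37.0 ± 2.19%. On average PFKP was the leading subunit in parental cells and PFKL in the other 3 groups.

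The aldolases, which split fructose bisphosphate, were highest in chemoresistant cells. ALDOC (ENSG00000109107, chromosome 17, 28573115 to 28577264), the brain type, was at 10.1 to 13.8 FPKM (median 11.9) in parental and 15.7 to 18.6 FPKM (median 16.2) in parental DTP libraries. Its levels were 42.1 to 56.3 FPKM (median 48.3) in chemoresistant and 26.2 to 28.5 FPKM (median 27.5) in chemoresistant DTP libraries. The 4 groups did not overlap. ALDOC was higher in chemoresistant than in parental cells by 1.94 (SE 0.07, limma adjusted p = 1.79e-18), rose in parental DTP cells by 0.46 (SE 0.07, limma adjusted p = 1.48e-06) and fell in chemoresistant DTP cells with -0.80 (SE 0.07, limma adjusted p = 4.3e-10). ALDOA, the main aldolase of most tissues, had only 5.83 ± 0.990, 5.32 ± 0.956, 11.1 ± 0.871 and 6.66 ± 0.823 FPKM. It fell in chemoresistant DTP cells with -0.67 (SE 0.10, limma adjusted p = 5.71e-06) and was higher in chemoresistant than in parental cells by 0.84 (SE 0.10). In GENCODE release 29, 42.3% of the exon bases of ALDOA also belong to AC093512.2 on the same strand, itself at 0.69 FPKM on average, so reads that fit both genes may be missing and the level of ALDOA relative to ALDOC is uncertain.

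The enzymes GPI, TPI1, GAPDH and PGK1 changed by less than 0.5 from either line to its DTP cells. TPI1 was nevertheless higher in chemoresistant DTP than in parental DTP cells by 0.46, and its 2 persister changes differed by 0.51. GPI, which isomerizes glucose phosphate, fell in parental DTP cells from 83.3 ± 3.89 to 69.2 ± 5.04 FPKM (-0.26, SE 0.05) and was at 81.8 ± 4.33 and 76.4 ± 3.91 FPKM in the chemoresistant groups. TPI1, which interconverts the triose phosphates, fell in parental DTP cells from 521 ± 30.9 to 414 ± 46.7 FPKM (-0.34, SE 0.08) and was at 504 ± 33.5 and 573 ± 90.6 FPKM in the chemoresistant groups, with the highest chemoresistant DTP value, 753, in library 2. GAPDH was at 3349.6 ± 338, 2908 ± 284, 3739 ± 389 and 3406 ± 211 FPKM. Its fall in parental DTP cells (-0.20, limma adjusted p = 0.0255) lost its call in 6 of 34 other settings, among them without parental library 2 or 4 or parental DTP library 4 or 5 (-0.16 to -0.19). PGK1, phosphoglycerate kinase, had means of 104, 100.1, 117 and 106 FPKM. It was higher in chemoresistant than in parental cells by 0.17, a difference that turned to -0.01 under relative log expression scaling. In parental DTP cells PGK1 was called lower than in parental cells under that scaling (-0.24) and under GC correction (-0.22). The same held without parental DTP libraries 5 and 6 (-0.14), but not in the main fit. Pseudogenes named after GAPDH (65), TPI1 (4), PGAM1 (13) and LDHA (6) held 0.86% to 1.09%, 5.22% to 7.91%, 0.26% to 1.12% and 0.84% to 1.59% of the FPKM of their parent genes. How reads shared with such copies were counted is not given in the sources used here.

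PGAM1, phosphoglycerate mutase, fell in both lines and was lowest in chemoresistant DTP cells. It was at 158 to 172 FPKM (median 163) in parental, 119.8 to 137 FPKM (median 130.3) in parental DTP, 138 to 152 FPKM (median 142) in chemoresistant and 98.3 to 106 FPKM (median 100.3) in chemoresistant DTP libraries. Each DTP group lay below all libraries of its own line, and chemoresistant DTP libraries below all others. The log2 fold changes were -0.34 (SE 0.04, limma adjusted p = 2.07e-08) in the parental and -0.51 (SE 0.04, limma adjusted p = 4.21e-11) in the chemoresistant line. They differed by -0.17 (limma adjusted p = 0.00546), or by 0.04 in the other direction under relative log expression scaling.

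Of the enolases, ENO1 made up 99.3% to 99.7% of the summed FPKM on average. ENO1 was at 546 ± 29.8, 483 ± 68.8, 585 ± 32.0 and 658 ± 62.2 FPKM and was higher in chemoresistant DTP than in parental DTP cells by 0.45 (SE 0.07, limma adjusted p = 1.07e-05), with no overlap. Its fall in parental DTP cells (-0.19, limma adjusted p = 0.0291) lost its call in 7 of 34 other settings, among them without parental library 4 or parental DTP library 1, 2, 3 or 4 (-0.16 to -0.17). ENO2, the neuronal enolase, was at 1.33 to 2.19 FPKM (median 1.66) in parental, 2.25 to 3.17 FPKM (median 2.73) in parental DTP, 3.10 to 4.84 FPKM (median 4.26) in chemoresistant and 2.87 to 3.81 FPKM (median 3.30) in chemoresistant DTP libraries. Parental libraries lay below those of all other groups. ENO2 rose in parental DTP cells by 0.48 (SE 0.09, limma adjusted p = 3.08e-05), was higher in chemoresistant than in parental cells by 0.94 (SE 0.09, limma adjusted p = 4.51e-10), and fell in chemoresistant DTP cells with -0.26 (SE 0.09), a fall not called under GC correction (-0.17, limma adjusted p = 0.0824).

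LDHA (ENSG00000134333, chromosome 11, 18394388 to 18408425), which makes lactate from pyruvate, was highest in parental cells. It was at 339.9 to 373 FPKM (median 351) in parental and 215 to 251 FPKM (median 234) in parental DTP libraries, and at 168 to 188 FPKM (median 179) in chemoresistant and 184 to 203 FPKM (median 192) in chemoresistant DTP libraries. Parental libraries lay above all others, parental DTP libraries came next without overlap, and the 2 chemoresistant groups overlapped. LDHA fell in parental DTP cells with -0.60 (SE 0.04, limma adjusted p = 2.72e-11) and was lower in chemoresistant than in parental cells (-0.98 (SE 0.04, limma adjusted p = 5.85e-16)). Its rise in chemoresistant DTP cells (0.11, limma adjusted p = 0.0486) lost its call in 19 of 34 other settings, among them without chemoresistant library 2, 3 or 5 or chemoresistant DTP library 2, 4, 5 or 6 (0.09 to 0.11), and at an unmoved value without any of 7 libraries of the parental groups. The difference between the persister changes, 0.71 (SE 0.06, limma adjusted p = 6.93e-10), was called in every other setting run for it.
PKM, pyruvate kinase, was also highest in parental cells, at 358 to 421 FPKM (median 397) in parental, 258 to 308 FPKM (median 301) in parental DTP, 266 to 320.2 FPKM (median 282) in chemoresistant and 265 to 275 FPKM (median 270.1) in chemoresistant DTP libraries. Parental libraries again lay above all others, and the other 3 groups overlapped. PKM fell in parental DTP cells with -0.40 (SE 0.05, limma adjusted p = 2.02e-07) and was lower in chemoresistant than in parental cells by a log2 fold change of -0.44 (SE 0.05). LDHB, the other lactate dehydrogenase subunit, was at 2.16 ± 0.394, 2.25 ± 0.527, 1.79 ± 0.360 and 2.27 ± 0.438 FPKM and called in no comparison. Under relative log expression scaling LDHB was called lower in chemoresistant than in parental cells (-0.31) and higher in chemoresistant DTP than in chemoresistant cells (0.24). Its 3 pseudogenes by name summed to 15.1% to 125% of its own FPKM, so its level is uncertain.

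**Figure D4:**
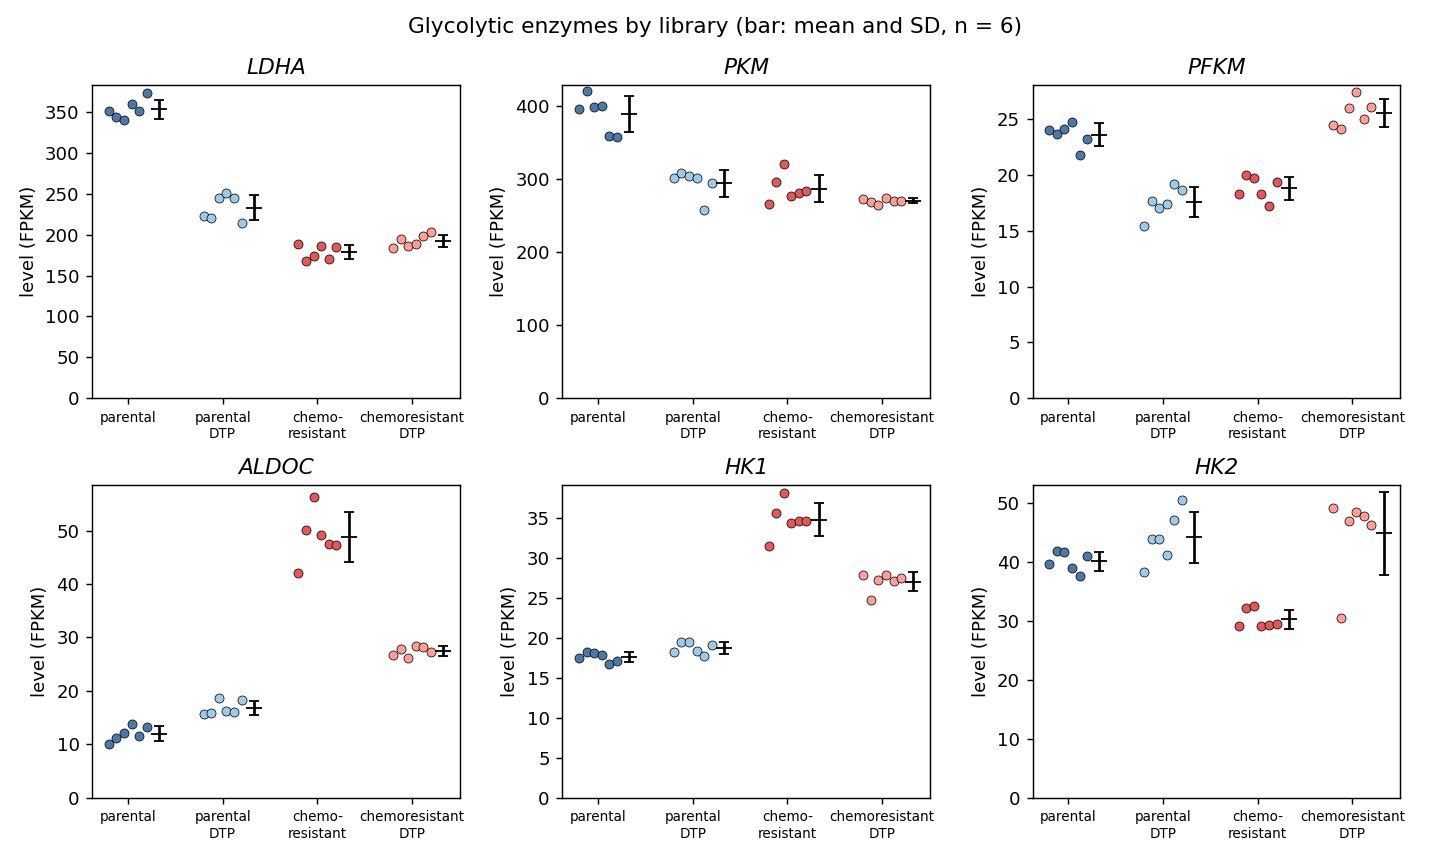
FPKM of 6 glycolytic enzymes in each of the 24 libraries (points, by group), with the mean and SD of each group of 6 (bars). LDHA and PKM are highest in parental libraries, PFKM is lower in parental DTP and higher in chemoresistant DTP libraries than in their own lines, ALDOC and HK1 peak in chemoresistant libraries, and 1 chemoresistant DTP library of HK2 lies at 30.5 FPKM, apart from the other 5.

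PFKFB3 and PFKFB4 set the level of a sugar phosphate that activates phosphofructokinase, and PDK1 holds back the oxidation of pyruvate in mitochondria. PFKFB3 was at 12.9 ± 1.05, 12.1 ± 0.591, 8.42 ± 0.449 and 9.64 ± 0.974 FPKM and was lower in chemoresistant than in parental cells (-0.56 (SE 0.06, limma adjusted p = 5.62e-09)), with no overlap. PFKFB4, induced by hypoxia, was at 2.96 ± 0.444, 4.38 ± 0.569, 4.73 ± 0.554 and 4.79 ± 0.707 FPKM. It rose in parental DTP cells by 0.44 (SE 0.09, limma adjusted p = 0.000137) and was higher in chemoresistant than in parental cells by 0.54 (SE 0.09). The share of PFKFB4 in the pair was 18.8 ± 3.38% in parental, 26.6 ± 2.65% in parental DTP, 35.9 ± 2.53% in chemoresistant and 33.1 ± 1.60% in chemoresistant DTP cells. Libraries of the parental group did not overlap with those of any other group in this share. PDK1, a kinase that shuts pyruvate dehydrogenase, rose in parental DTP cells from 1.34 ± 0.198 to 1.91 ± 0.136 FPKM (0.32, SE 0.06) and stayed at 1.23 ± 0.125 and 1.24 ± 0.214 FPKM in the chemoresistant groups.

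The 2 abundant carriers were called in no comparison, but in several under other settings. SLC2A1, the glucose carrier GLUT1, was at 57.8 ± 3.16, 61.2 ± 6.12, 56.8 ± 4.32 and 62.9 ± 5.88 FPKM, and SLC16A1, the lactate carrier MCT1, at 33.7 ± 0.632, 32.2 ± 1.83, 31.7 ± 1.82 and 33.9 ± 2.58 FPKM. Under relative log expression scaling SLC16A1 was called in all 5, with -0.25 in parental DTP against parental, 0.11 in chemoresistant DTP against chemoresistant and -0.26 in chemoresistant against parental cells, 0.10 between the DTP groups and 0.36 for the difference. SLC2A1 was called under that scaling for chemoresistant against parental cells (-0.21) and the difference (0.27), and under GC correction also in chemoresistant DTP cells (0.23). Without chemoresistant DTP library 2 both carriers were called higher in chemoresistant DTP than in chemoresistant cells, SLC2A1 by 0.19 and SLC16A1 by 0.13, and without chemoresistant library 3 SLC2A1 by 0.17. SLC16A3, the hypoxia-induced lactate exporter MCT4, was at 0.165 to 0.263 FPKM (median 0.201) in parental, 0.263 to 0.485 FPKM (median 0.339) in parental DTP, 1.27 to 2.06 FPKM (median 1.84) in chemoresistant and 1.31 to 1.95 FPKM (median 1.58) in chemoresistant DTP libraries. Both chemoresistant groups lay above both parental groups. It was higher in chemoresistant than in parental cells by 1.21 (SE 0.07, limma adjusted p = 4.66e-14), a value that the added 1 FPKM makes smaller than the ratio of the means, 8.82. Its exons share 5.36% of their bases with CSNK1D on the opposite strand, at 13.8, 14.6, 21.4 and 17.5 FPKM in the 4 groups. The rise of SLC16A3 in parental DTP cells (0.17, limma adjusted p = 0.0304) lost its call in 9 of 33 other settings, among them without parental library 5 or 6 or parental DTP library 5 or 6 (0.15 to 0.16). SLC2A3, the high-affinity glucose carrier GLUT3, was below the filter, with 5 to 16 recovered reads per parental library and 0.0414 to 0.0982 FPKM (median 0.0488). It was at 0.114 to 0.197 FPKM (median 0.138) in parental DTP, 0.201 to 0.5003 FPKM (median 0.386) in chemoresistant and 0.316 to 0.780 FPKM (median 0.440) in chemoresistant DTP libraries, so that each parental library lay below all libraries of the other 3 groups. The 3 pseudogenes named after SLC2A3 summed to as much as 344% of its FPKM, and these low levels are uncertain.

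**Figure D5:**
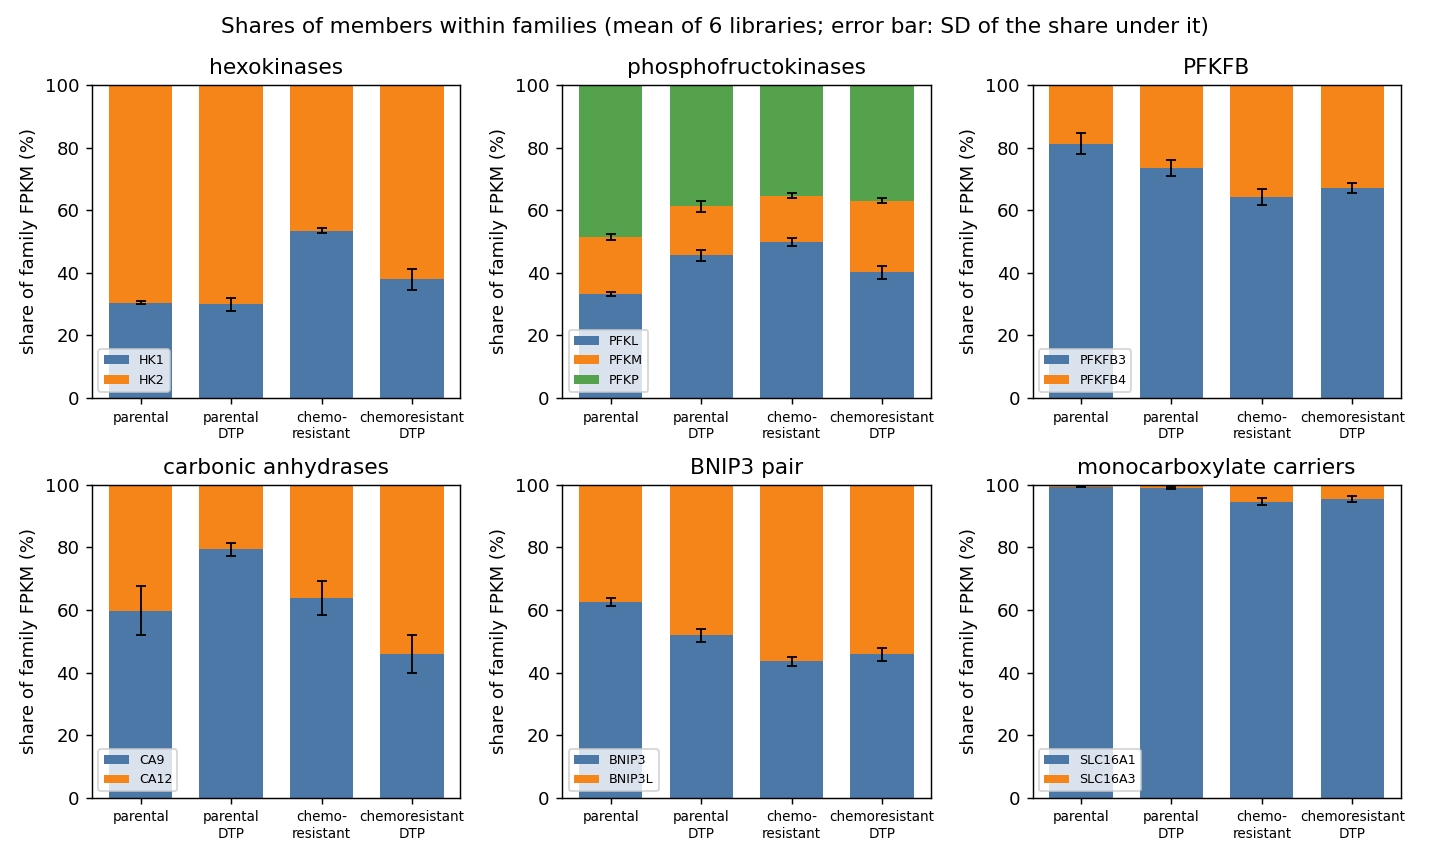
Mean share of each member in the summed FPKM of its family (percent, 6 libraries per group), with the SD of the share at the top of each bar segment. HK1 makes up 30.5% of the hexokinases in parental and 53.5% in chemoresistant cells, PFKL 33.2% and 49.9% of the phosphofructokinases, CA9 46.1% of the carbonic anhydrases in chemoresistant DTP cells, and SLC16A3 makes up at most 5.38% of the lactate carriers in any group.

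The 2 DTP groups were also compared with each other, a comparison that uses the same DTP libraries as those above. Members of the hypoxia response were split: NDRG1 (0.76, SE 0.14), VEGFA (0.70, SE 0.04) and CA12 (0.55, SE 0.06) were higher in chemoresistant DTP than in parental DTP cells. HIF1A (-1.22, SE 0.11), CA9 (-0.95, SE 0.16), ADM (-0.91) and P4HA1 (-0.52, SE 0.10) were lower. Of the 17 glycolytic enzymes 9 were higher and 4 lower in the chemoresistant DTP group, beside 29.5% and 32.3% of all genes, led upward by ALDOC (0.68), PFKM (0.52) and HK1 (0.51). SLC16A3 was higher there by 0.94 (SE 0.07). Libraries of the 2 DTP groups did not overlap for any of the genes just named with a value. These genes were named for large changes between the same libraries, so the lack of overlap adds no support. Of the calls of enzymes, ENO2 (higher, 0.20) was lost in 17 of 33 other settings, PKM (lower, -0.12) in 13 of 34 and PFKL (lower, -0.18) in 9 of 34. ENO2 lost it without parental DTP library 1, 2, 4 or 5 or chemoresistant DTP library 1, 4, 5 or 6 (0.16 to 0.21), and at an unmoved value without any of 7 libraries of the other groups. PKM lost it without parental DTP library 1, 2, 3, 4 or 6 or chemoresistant DTP library 1, 3, 5 or 6 (-0.11 to -0.12). PFKL lost it without library 2, 3 or 6 of parental DTP or library 3, 5 or 6 of chemoresistant DTP cells (-0.13 to -0.19), and GPI (0.10) and ALDOA (0.23) without parental DTP library 1.

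Genes of the same pathways that are not members were also counted. Their lists were chosen with earlier results of these data known, so their counts are no independent support for the pattern of the members. Of 16 subunits and regulators of HIF, 14 were tested, and 9 rose and 2 fell in parental DTP cells, where 45.8% and 19.7% of all genes did. In chemoresistant DTP cells 5 rose and 6 fell, beside 20.5% and 27.4%, and 10 were higher and 1 lower in chemoresistant than in parental cells, beside 48.2% and 29.4%. Under relative log expression scaling these counts were 7 and 3, 5 and 6, and 9 and 1, while 32.6% of all genes rose and 32.1% fell in parental DTP cells. VHL, the ubiquitin ligase subunit that destroys hydroxylated HIF1A, had mean levels of 6.24 ± 0.293 FPKM (parental), 11.9 ± 1.61 FPKM (parental DTP), 21.6 ± 1.14 FPKM and 21.8 ± 1.42 FPKM in the chemoresistant groups (1.64 for chemoresistant against parental cells, SE 0.06). CITED2, which competes with HIF1A for its coactivator, rose in parental DTP cells (0.52), fell in chemoresistant DTP cells (-0.38) and was higher in chemoresistant than in parental cells (1.41). SIAH1, a ubiquitin ligase that targets prolyl hydroxylases, rose in parental DTP cells from 0.501 ± 0.170 to 1.73 ± 0.210 FPKM. EPAS1, which encodes HIF2A, was at 1.12 ± 0.0957, 0.770 ± 0.102, 3.48 ± 0.268 and 2.66 ± 0.467 FPKM. ARNT, the constant partner of HIF1A, rose by 0.33 in parental DTP cells and fell with -0.40 in chemoresistant DTP cells, and its paralogue ARNT2 changed by 0.34 and -0.62.

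Among 42 other genes known to be induced by hypoxia, 36 were tested. In parental DTP cells 25 rose and 6 fell (median 0.39), where 45.8% of all tested genes rose and 19.7% fell. In chemoresistant DTP cells 13 rose and 9 fell (median 0.03), beside 20.5% and 27.4% of all genes. Chemoresistant cells had 23 of them higher and 6 lower than parental cells (median 0.59), beside 48.2% and 29.4% of all genes. The medians of all genes were 0.14, -0.02 and 0.14, and in parental DTP cells 23 genes of the list rose and 7 fell with relative log expression scaling. STC2, a secreted glycoprotein, went from 13.7 ± 1.22 to 62.4 ± 3.33 FPKM in the parental line and from 59.8 ± 1.20 to 86.7 ± 5.83 in the chemoresistant line. DDIT4, an inhibitor of mTORC1, rose in parental DTP cells from 148 ± 7.36 to 375 ± 42.6 FPKM and was at 446 ± 42.8 and 476 ± 50.4 in the chemoresistant groups. NDUFA4L2, a mitochondrial protein induced by HIF, rose in parental DTP cells by 0.67 (SE 0.13) and fell in chemoresistant DTP cells with -1.13 (SE 0.13), as called for CA9. The collagen crosslinker LOX did likewise (0.62 and -0.61). BHLHE40, a repressor of the clock, was higher in chemoresistant than in parental cells by 1.90 and STC1 by 1.68. ANGPTL4, a secreted inhibitor of lipoprotein lipase, rose in both lines (1.12 and 0.65). The difference between the persister changes was below 0 for 25 of the 36 and above 0 for 3, where 43.4% and 20.5% of all genes were. The most positive was JMJD6 at 1.36, which fell in parental and rose in chemoresistant DTP cells (-0.83 and 0.53). Under relative log expression scaling the difference was below 0 for 18 and above 0 for 7, beside 33.3% and 31.0% of all genes.

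Of 50 other genes of glycolysis and pyruvate use, 29 were tested, and 14 rose and 7 fell in parental DTP cells, near the shares of all genes (45.8% and 19.7%). In chemoresistant DTP cells 5 rose and 10 fell, beside 20.5% and 27.4% of all genes. Chemoresistant cells had 9 of them higher and 11 lower than parental cells, beside 48.2% and 29.4%. Between the DTP groups 1 was higher and 12 were lower in the chemoresistant line, beside 29.5% and 32.3% of all genes. The sugar carrier SLC2A12 rose from 0.196 ± 0.0489 to 1.07 ± 0.0808 FPKM in parental DTP cells and fell from 2.28 ± 0.173 to 0.760 ± 0.173 in chemoresistant DTP cells, a difference of -1.70 (SE 0.08). SLC2A8, another carrier of the family, rose from 5.33 ± 0.515 to 10.6 ± 0.796 FPKM in parental DTP cells and was at 6.94 ± 0.514 and 6.69 ± 0.469 in the chemoresistant groups. PDP1, the phosphatase that reactivates pyruvate dehydrogenase, rose in parental DTP cells (0.70) and fell in chemoresistant DTP cells (-0.36), and PDK2, a kinase that acts against it, also rose and fell (0.36 and -0.57). BPGM, which makes the bisphosphoglycerate of red blood cells, fell in both lines (-0.41 and -0.46).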

How the data were processed

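RNA sequencing of 24 libraries of the KYSE450 line was analysed, 6 per group, grouped and numbered as the sample labels give them. TRIzol was used for RNA extraction and a standard Illumina protocol for the libraries, per the labels' protocols. GRCh38 is the build in the submitters' processing notes. Which aligner, counter, annotation and strand setting were used is not given in the sources used here. FPKM values were what the authors deposited, per the file headers, in 1 table with a column per library. It held 61251 genes besides 23 rows of text fragments without values, which were dropped.

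The smallest FPKM steps of a gene equal 1 read, which gave whole reads for 41100 of 41101 genes above 0 and library totals of 14947375 to 37989447. With 0 reads, up to 3 are possible (0.079 to 0.201 CPM, counting error only). Log2(FPKM + 1) was tested in R 4.3.3 with limma 3.58.1, its variance prior following expression, and 4 group means fitted to all 24 libraries. The 13729 genes that reached 1 FPKM in some group's mean were tested, two-sided, with Benjamini-Hochberg adjustment within each comparison and a threshold of 0.05. The fit was tested on simulated data first. Shares within families are given with no test. Alternatives were a pseudocount of 0.1, no filter and a filter of 5 FPKM, relative log expression scaling, correction for GC content, a replicate block, only the libraries compared, leaving out each library, leaving out parental DTP libraries 5 and 6, and voom of limma on recovered reads, the last chosen after seeing the data. Coordinates and exon overlaps are from GENCODE release 29, which held 58337 of the gene IDs, and promoters from RefSeq.

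The members and gene lists were chosen with earlier results of these data known. Members were described in full at an absolute log2 fold change of 0.5 or more past the threshold, and others by counts and ranges or in short. Of each other list, genes came from the 4 with the largest changes per comparison.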

Additional observations from a re-analysis of the deposited data

Results flagged for a closer look

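In 19 of 152 sets of 6 libraries (38 members in 4 groups) the highest or lowest library stood apart. Its gap to the nearest library, as a share of the range of the group, was above Dixon's 95% critical value of 0.625. Chance gives about 1 in 20 such sets, or 7.6 of 152. Of the 19 sets, 11 had chemoresistant DTP library 2 as the library that stood apart. It was the lowest of its group for HK1 (24.8 FPKM), HK2 (30.5 FPKM), GPI (69.0 FPKM), PFKP (33.9 FPKM) and PFKFB3 (7.74 FPKM). The same library was lowest for SLC16A1 (28.8 FPKM), CA12 (1.61 FPKM) and KDM3A (4.84 FPKM), and highest for TPI1 (753 FPKM), ENO1 (778 FPKM) and ADM (32.8 FPKM). Parental DTP library 5 was lowest for PKM (258 FPKM) and highest for LDHB (3.30 FPKM) and BNIP3L (13.3 FPKM). Parental DTP library 6 was highest for PFKFB3 (13.2 FPKM), and parental DTP library 3 for PFKFB4 (5.44 FPKM) and ANKRD37 (1.32 FPKM). Chemoresistant library 2 was highest for EGLN1 (4.03 FPKM) and ADM (30.5 FPKM).

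For 28 members the change from a line to its DTP cells differed between the lines in the limma fit. The values that follow are the log2 fold change of the chemoresistant line minus that of the parental line. Differences above 0 were those of PFKM (0.83), LDHA (0.71), TPI1 (0.51), HK2 (0.41), PFKP (0.39), ENO1 (0.35), PKM (0.32), PFKFB3 (0.26) and GPI (0.17), all genes of glycolysis. Glycolytic enzymes below 0 were ALDOC (-1.26), PFKL (-0.75), ENO2 (-0.74), ALDOA (-0.56), HK1 (-0.44) and PGAM1 (-0.17). PFKFB4 (-0.43), PDK1 (-0.31) and the lactate carrier SLC16A3 (-0.27) were also below 0. In the oxygen-sensing group HIF1A stood at -1.05 and EGLN1 at -0.23. Hypoxia response genes below 0 were VEGFA (-1.73), CA9 (-1.67), BNIP3L (-1.45), NDRG1 (-1.33), ADM (-0.995), BNIP3 (-0.78), P4HA1 (-0.49) and KDM3A (-0.35). The differences of GPI and EGLN1 lost their calls in 15 of 33 and 9 of 32 other settings. For GPI these included leaving out parental library 1, 2, 3 or 4, chemoresistant library 1 or 5, parental DTP library 1 or 4, or chemoresistant DTP library 1, 3, 4, 5 or 6 (0.13 to 0.17). For EGLN1 they included leaving out parental library 6, chemoresistant library 2 or parental DTP library 6 (-0.19 to -0.21). That of SLC16A3 lost its call in 4 of 32, with -0.09 under GC correction, with or without the replicate block, -0.21 under relative log expression scaling and -0.22 without parental DTP libraries 5 and 6. PFKFB4 lost its call under that scaling (-0.27) and under GC correction (-0.26).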

How the results depend on the processing

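Of 119 calls of members over the 5 comparisons, 100 were ended or turned by no alternative run and 19 by 1 or more. Under relative log expression scaling, 9 members rose in chemoresistant DTP cells (5 as reported) and 16 were lower in chemoresistant than in parental cells (7 as reported). Correction for GC content gave 9 and 15 for these counts, and 14 members above 0 in the difference between the lines (9 as reported). The replicate block with GC correction gave 10, 15 and 14. Counts over all 13729 tested genes moved too. In chemoresistant DTP cells 2820 genes rose as reported, 3248 under relative log expression scaling and 3547 under GC correction. Lower in chemoresistant than in parental cells were 4031, 5288 and 5320, and above 0 in the difference 2812, 4252 and 4385. The block with GC correction gave 3500, 5319 and 4349. Without parental DTP libraries 5 and 6, 8 members rose in chemoresistant DTP cells, beside 2982 of 13747 genes. With a filter of 5 FPKM, which left 28 members tested, 11 were higher in chemoresistant than in parental cells (17 as reported). Of the 7540 genes then tested 3174 were higher there. PGK1 in chemoresistant against parental cells turned to -0.012 under relative log expression scaling. The difference for PGAM1 turned to 0.038 under that scaling and to 0.0032 under GC correction, with or without the replicate block. The cause was not tested. Of all called genes, the share above 0 in the difference went from 32.1% to 48.2% under relative log expression scaling. The filter of 5 FPKM tested 7540 genes and called 3932 to 6020 of them per comparison, against 6586 to 10645 of 13729, and with no filter 16484 of 41101 were called in chemoresistant against parental cells.

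Leaving out 1 library at a time gave 13 to 18 rises and 8 to 10 falls of members in parental DTP cells, and 4 to 7 rises and 13 to 14 falls in chemoresistant DTP cells. Against parental cells, 17 to 18 members were higher and 7 to 8 lower in chemoresistant cells. Between the DTP groups 10 to 15 were higher and 9 to 11 lower, and in the difference 8 to 10 were above and 18 to 20 below 0. Whether the replicate numbers pair the libraries is not settled, since correlations cannot exclude a shared culture or date. Deviations of libraries within a group also followed GC content, with rank correlations from -0.64 to 0.655. The part of this in the correlations between libraries was not tested. Over 36 pairs of same-numbered libraries the correlation of deviations ran from -0.385 to 0.403, with 12 pairs over 0.1, and 4 correlated best with their own number. The replicate block gave 15 rises and 10 falls in parental DTP cells, 4 and 13 in chemoresistant DTP cells, and 17 and 7 in chemoresistant against parental cells. It gave 14 and 11 between the DTP groups and 9 and 19 in the difference. Limiting the fit to the libraries compared gives no value for the difference, which needs all 4 groups. Depth limits SLC2A3, with 5 to 16 reads per parental library.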
